A study of Rattus norvegicus with 8 samples.

Results

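The enzymes that remove superoxide and peroxides were followed in cultured fetal rat testes exposed to mono-(2-ethylhexyl) phthalate (MEHP), the monoester to which the plasticizer di-(2-ethylhexyl) phthalate is hydrolysed in the body. The 10 genes were Gpx1, Gpx3, Gpx4, Prdx1, Prdx2, Prdx3, Prdx6, Sod1, Sod2 and Cat, and every probe that carried one of these gene names on the array was used. These were 10 of the 35581 gene names on the array and gave 12 of its 41012 probes, Gpx1 and Sod1 having 2 each. Rat testes from Sprague-Dawley fetuses were explanted on filters and cultured for 72 h with MEHP, or with the vehicle DMSO alone. RNA from 1 testis at 1 µM and from 3 single testes at 10 µM was hybridized on 2-colour Agilent oligonucleotide arrays, each testis on 2 arrays with the dyes exchanged. The reference on all 8 arrays was a single pool of RNA from 3 vehicle testes, so the spread between control testes was not measured. The methods state that treated testes came from different litters.

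Superoxide is converted to hydrogen peroxide by superoxide dismutases, of which SOD1 works mainly in the cytosol and SOD2 in the mitochondrial matrix. Hydrogen peroxide is then removed by catalase in peroxisomes, by the glutathione peroxidases, which draw on glutathione, and by the peroxiredoxins, most of which draw on thioredoxin. In the testis, mitochondria and the cytochrome P450 enzymes of steroid synthesis are known sources of these oxidants.

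The promoters of 4 members are shown because these genes span the range of ratios at 10 µM, from Prdx1 and Prdx3, the lowest means with and without testis 2, through Gpx1 to Cat, whose hybridizations lay on both sides of 0. Each window runs 5′ to 3′ on the strand of the gene, from 250 bases before to 50 bases after the start site, and comes from RefSeq in build GRCr8. They lie at chr5:135383656-135383955 on the plus strand for Prdx1, at chr1:270000062-270000361 on the minus strand for Prdx3, at chr8:117905212-117905511 on the plus strand for Gpx1, and at chr3:110329477-110329776 on the minus strand for Cat. Capitals mark the antioxidant response element core TGACNNNGC, which NRF2 is known to bind, and the GC box GGGCGG, each searched on both strands.
Prdx1: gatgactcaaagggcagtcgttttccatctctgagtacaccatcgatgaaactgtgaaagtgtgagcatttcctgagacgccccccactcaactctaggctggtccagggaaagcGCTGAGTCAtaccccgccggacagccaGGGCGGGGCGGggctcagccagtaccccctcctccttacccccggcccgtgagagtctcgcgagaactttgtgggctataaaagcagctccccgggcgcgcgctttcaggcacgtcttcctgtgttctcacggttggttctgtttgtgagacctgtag
Prdx3: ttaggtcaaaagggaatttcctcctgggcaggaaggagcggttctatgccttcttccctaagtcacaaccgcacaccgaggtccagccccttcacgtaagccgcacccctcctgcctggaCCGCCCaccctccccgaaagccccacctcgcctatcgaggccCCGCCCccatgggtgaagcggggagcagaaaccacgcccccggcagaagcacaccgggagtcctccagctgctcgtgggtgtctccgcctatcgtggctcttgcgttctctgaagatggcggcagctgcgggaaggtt
Gpx1: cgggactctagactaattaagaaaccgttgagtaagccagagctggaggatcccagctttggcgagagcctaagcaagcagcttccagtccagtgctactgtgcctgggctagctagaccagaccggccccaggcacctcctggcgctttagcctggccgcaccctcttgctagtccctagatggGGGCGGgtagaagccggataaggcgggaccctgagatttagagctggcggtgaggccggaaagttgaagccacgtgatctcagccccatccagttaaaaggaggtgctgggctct
Cat: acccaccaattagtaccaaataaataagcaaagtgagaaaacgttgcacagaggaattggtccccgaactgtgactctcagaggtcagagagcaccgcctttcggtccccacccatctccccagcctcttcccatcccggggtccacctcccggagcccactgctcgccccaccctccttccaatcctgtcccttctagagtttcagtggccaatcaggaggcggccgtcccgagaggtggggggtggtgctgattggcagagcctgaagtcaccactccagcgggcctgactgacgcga
Of the 9 members with a window in the table, Prdx1 and Sod2 held the antioxidant response element core, which was present in 12.1% of all 33469 promoter windows. In Prdx1 it lay on the opposite strand with its first printed base 135 bases before the start site, and 2 overlapping GC boxes followed it. The GC box was found in 8 of the 9 members and in 33.1% of all windows, Cat being the member without it. A match of letters is a description of the sequence and not evidence that a factor binds there.

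All values below are log2 ratios of MEHP over vehicle, so that −1 means that the MEHP signal was at 0.5 times the vehicle signal. The labels place MEHP on the green dye (Cy3) on every array, but by the methods each duplicate was a dye swap. The red over green ratios of the 2 arrays of a testis correlated negatively over 3680 bright probes, with a Pearson r of −0.82 to −0.50 taken across probes, where probes are no independent replicates. MEHP was therefore placed on Cy3 for first hybridizations and on Cy5 for repeats, and the direction is likely rather than settled: with the opposite assignment every sign would turn. Over the probes above background at 1 µM, a wider set, the 2 turned arrays of that testis correlated at −0.16. The MEHP channel of testis 2 at 10 µM was nearly blank, with 0.249% and 1.54% of spots well above background on its 2 arrays against 7.80% to 29.8% in the MEHP channel of the other 6 arrays. The means of the genes and the medians of the lists at 10 µM are therefore given with and without it.

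Of the 12 member probes, 10 probes of 8 genes were tested at 10 µM, because 1 channel or both stood well above background on 3 or more of the 6 arrays. Of these 10, 8 probes had both channels that high on 3 or more arrays. Gpx3, the glutathione peroxidase secreted into plasma, was above background in neither channel on any array at either dose and has no ratio here. Sod2 was above background in the vehicle channel on 1 of 6 arrays at 10 µM and in the MEHP channel on none, so that no fold is given. In testis 2 the MEHP channel was above background for none of the 12 member probes on the first array and for 1, Sod1, on the repeat, while the vehicle channel was above background for 10 and 8 of them. On the other 4 arrays at 10 µM the MEHP channel was above background for 6 to 10 of the 12.

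**Figure D1:**
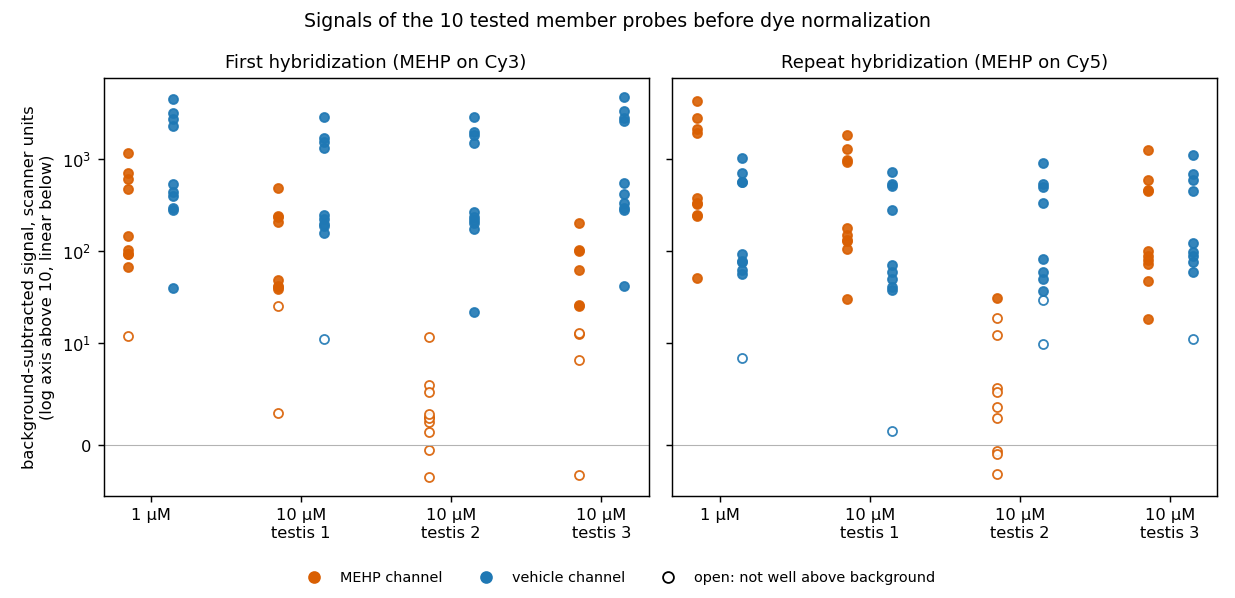
Background-subtracted signal in scanner units before dye normalization, on a log axis above 10 and linear below, for the 10 tested member probes (points) in the MEHP and vehicle channels of each testis, with the 2 dye orientations in separate panels. In testis 2 the MEHP signals lay at or below 11.5 on the first array and 30.8 on its repeat, while the vehicle signals reached 2816 and 897.

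At 10 µM, Prdx1, a cytosolic peroxiredoxin, had the lowest mean over the 3 testes, and it was the only one of the 10 tested member probes that passed an adjusted p of 0.05 in limma. Its mean log2 ratio was −2.09 ± 1.27 (SD, n = 3), which is 0.235 times the vehicle level. The order rests on testis 2, whose MEHP channel was nearly blank: without it Prdx3 was the lowest member, at −1.61 against −1.39 for Prdx1. Over all 10016 tested probes, 142 passed (1.42%), 116 of them lower (1.16%) and 26 higher (0.26%). The other member probes had means between −1.74 for Prdx3 and −0.46 for the brighter Gpx1 probe. Of the 10 probes, 8 were below 0 in all 3 testes, against 36.4% of all tested probes, and 7 were below 0 in all 6 hybridizations, against 19.1%. At an unadjusted p below 0.05 in limma, 6 of the 10 were lower, against 15.8% of all. The median of the 10 member probes was −1.29, beside −0.42 over all tested probes.

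**Figure D2:**
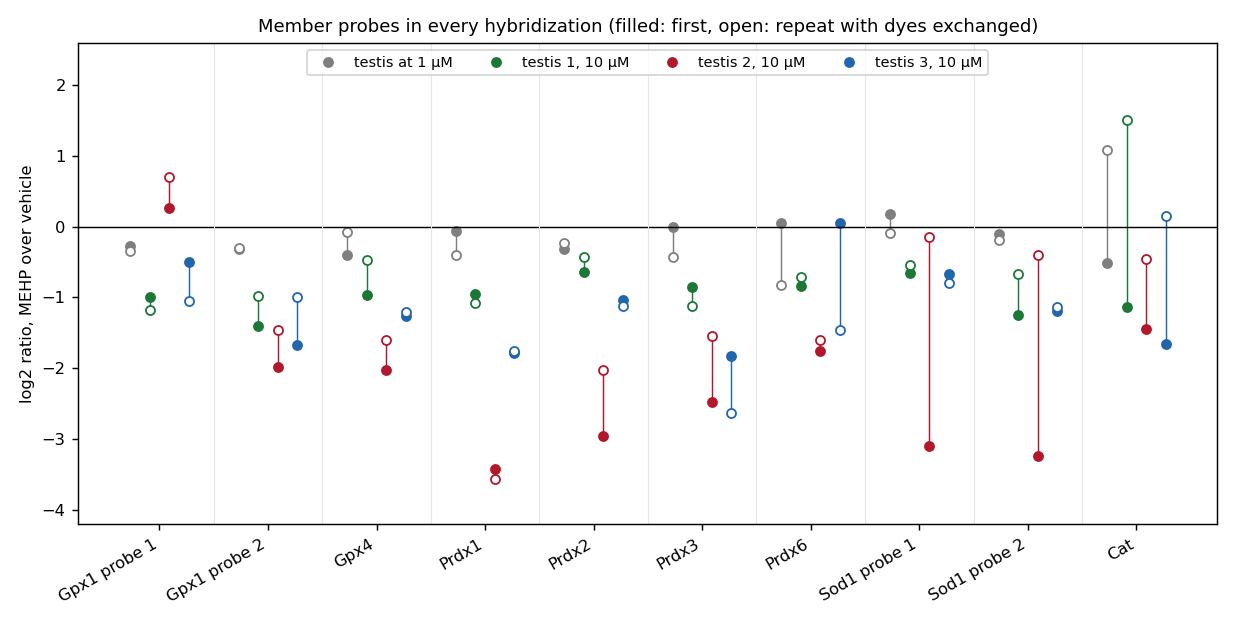
Log2 ratio of MEHP over vehicle for the 10 tested member probes in every hybridization, with a line joining the first hybridization (filled) and the repeat with exchanged dyes (open) of each testis. At 10 µM 7 probes lay below 0 in all 6 hybridizations, whereas the Cat points of testes 1 and 3 lay on both sides of 0.

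Among the peroxiredoxins, Prdx1 gave log2 ratios of −1.01, −3.49 and −1.77 in testes 1, 2 and 3. All were below the vehicle, testis 2 being the lowest, and the 2 hybridizations of each testis differed by at most 0.14. The adjusted p was 0.0449 in limma, with a 95% interval of the mean from −3.22 to −0.96. Both use a standard error of 0.563 that eBayes drew towards all tested probes, so they reflect little of the wide spread of Prdx1. In testis 2 the background-subtracted MEHP signal of Prdx1 was below 0 on both arrays, at −3.06 and −0.84 scanner units beside 1812 and 498 in the vehicle channel, so Feature Extraction used a substitute signal and the ratio there is no direct measurement. Leaving that testis out moved the mean to −1.39, at an adjusted p of 0.0260, whereas the call was lost without testis 1 (limma, adjusted p = 0.274) or testis 3 (adjusted p = 0.849). Centring every array on its median gave a mean of −1.64, with an adjusted p of 0.0502.

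Prdx3, the mitochondrial peroxiredoxin, had ratios of −0.99, −2.01 and −2.23 in testes 1, 2 and 3. All were below the vehicle, and the lowest was in testis 3, where the MEHP channel was measured above background on 1 of the 2 arrays. Prdx3 averaged −1.74 ± 0.67 (SD, n = 3; limma, adjusted p = 0.0750). Over testes 1 and 3 it passed in limma, with an adjusted p of 0.0220. Prdx2, abundant in the cytosol, gave −0.53, −2.49 and −1.08. Prdx2 averaged −1.37 ± 1.01 (SD, n = 3; limma, adjusted p = 0.172), and −0.81 over testes 1 and 3. Prdx6, which reduces phospholipid hydroperoxides with glutathione as its reductant, gave −0.78, −1.68 and −0.70. In testis 3 its first hybridization stood at 0.05 and the repeat at −1.46. The mean of Prdx6 was −1.05 ± 0.54 (SD, n = 3; limma, adjusted p = 0.312), and −0.74 over testes 1 and 3.

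The cytosolic glutathione peroxidase Gpx1 was read by 2 probes, and these differed in testis 2. The brighter probe, A_42_P805300, gave −1.08, 0.49 and −0.78 in testes 1, 2 and 3. The other probe, A_44_P123315, gave −1.19, −1.72 and −1.34 in the same testes. In testes 1 and 3 the probes were 0.11 and 0.56 apart, both below the vehicle, and in testis 2 they were 2.20 apart and on opposite sides of 0. Neither was above background in the MEHP channel of testis 2, where the brighter probe read 11.5 and 12.2 scanner units and the other 2.78 and −0.61. Over the 3 testes the brighter probe averaged −0.46 ± 0.83 (SD, n = 3; limma, adjusted p = 0.717), while the dimmer averaged −1.41 ± 0.27 (SD, n = 3; limma, adjusted p = 0.146). Testes 1 and 3 alone averaged −0.93 and −1.26, and the dimmer probe passed with an adjusted p of 0.0294 in limma while the brighter had 0.0792. The MEHP channel of the dimmer probe was above background on 2 of 6 arrays, the repeats of testes 1 and 3, and that of the brighter on 4. With only spots above background in both channels, the brighter averaged −0.93 and the dimmer −0.99. Both then passed (limma, adjusted p of 0.0402 and 0.0314), where 28.7% of all tested probes did. Which transcripts each probe reads was not established, as both carry the same transcript identifier.

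Gpx4, which reduces lipid hydroperoxides within membranes, had ratios of −0.72, −1.82 and −1.23. It was below the vehicle in all 6 hybridizations, and its MEHP channel was above background on 3 of the 6 arrays, none of them from testis 2. The mean was −1.26 ± 0.55 (SD, n = 3; limma, adjusted p = 0.207), and −0.98 without testis 2.

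Sod1, the cytosolic copper and zinc superoxide dismutase, was also read by 2 probes. The brighter probe, A_43_P14620, gave −0.60, −1.62 and −0.74 in testes 1, 2 and 3, and A_44_P461197 gave −0.96, −1.82 and −1.17. The probes moved together, the brighter being 0.33 ± 0.12 (SD, n = 3) above the other. Their means were −0.99 ± 0.56 (SD, n = 3; limma, adjusted p = 0.347) and −1.32 ± 0.45 (SD, n = 3; limma, adjusted p = 0.184). In testis 2 the 2 hybridizations of the brighter probe were far apart, with −3.10 for the first array and −0.15 for the repeat. In that repeat, the only array of testis 2 with a member above background in the MEHP channel, its signals before dye normalization were 30.8 scanner units for MEHP and 897 for the vehicle. Without testis 2 the means of the probes were −0.67 and −1.06, and neither passed in limma (adjusted p of 0.183 and 0.0512).

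Cat, which encodes catalase, did not have a stable sign. The first hybridizations gave −1.14, −1.45 and −1.65 in testes 1, 2 and 3, and the repeats 1.51, −0.45 and 0.15. The MEHP channel was above background on 2 of the 6 arrays and the vehicle channel on 2, and on each of these arrays the channel above background was the one labelled with Cy5. The means of the testes were 0.18, −0.95 and −0.75, with an overall mean of −0.51 ± 0.61 (SD, n = 3; limma, adjusted p = 0.674). Testes 1 and 3 alone gave −0.28.

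**Figure D3:**
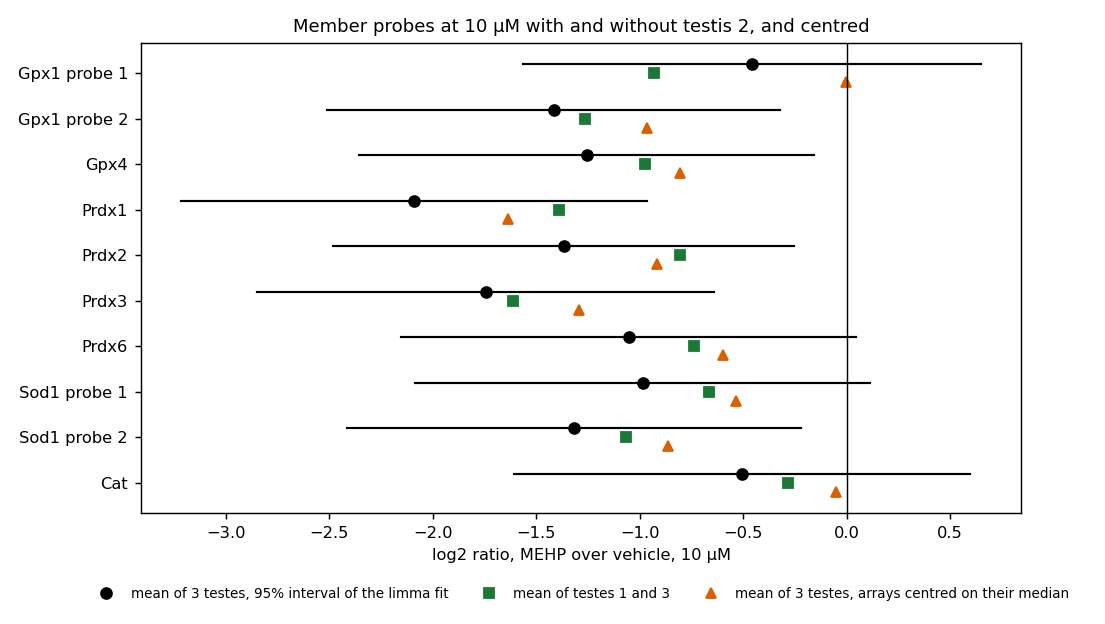
Mean log2 ratio of MEHP over vehicle at 10 µM for the 10 tested member probes, as the mean of 3 testes with the 95% interval of the limma fit (circles and lines), as the mean of testes 1 and 3 (squares), and with arrays centred on their median (triangles). The interval of Prdx1 ran from −3.22 to −0.96, and the intervals of the brighter Gpx1 probe, Prdx6, the brighter Sod1 probe and Cat crossed 0.

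Testis 2 had the lowest ratio of the 3 testes for 8 of the 10 member probes, and the median of all tested probes was also lowest there. The share of all tested probes that were lowest in testis 2 was not counted, so whether the 8 of 10 is particular to the members is not known. The median of the member probes was −0.87, −1.77 and −1.12 in testes 1, 2 and 3, beside medians over all tested probes of 0.09, −1.13 and −0.20. In each testis the members' median was below that of all probes, by the most in testis 1. Without testis 2, 3 of the 10 member probes passed as lower (9.53% of all tested probes) and 0 as higher (7.12%), and the members' median was −0.95 beside −0.04. These 3 were Prdx1, Prdx3 and the dimmer Gpx1 probe, and 8 of the 10 were below 0 in all 4 remaining hybridizations, against 22.1% of all tested probes. With each array centred on its median, 8 of the 10 stayed below 0 in all 3 testes, against 21.9%, while the brighter Gpx1 probe stood at −1.19, 1.67 and −0.50. Of the 10, 0 passed as lower after centring in limma (0.629% of all tested probes), and 6 had an unadjusted p below 0.05 (23.4% of all). The part of the blank MEHP channel of testis 2 in the calls was not tested beyond leaving that testis out. The members were also brighter than the probes beside them. On the first array of testis 2 the median vehicle signal before dye normalization was 248 for the tested member probes and 68.3 over all tested probes. The part of brightness in the members' ratios was not tested.

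**Figure D4:**
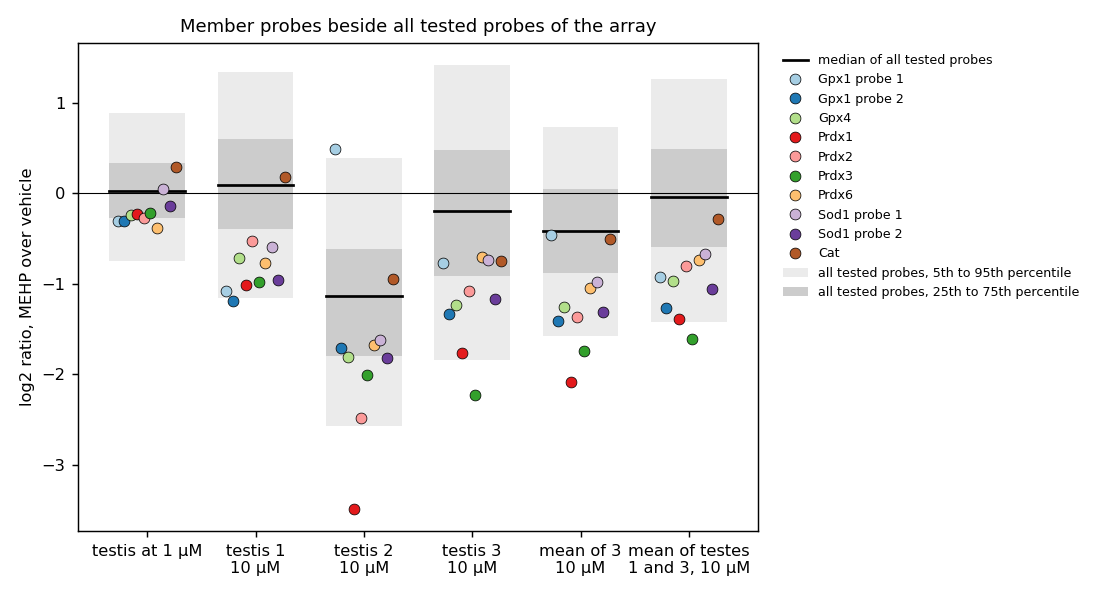
Log2 ratios of MEHP over vehicle for the 10 tested member probes (points) beside the distribution of all tested probes (bars from the 5th to 95th and the 25th to 75th percentiles, line at the median), in each testis and for the means at 10 µM. In testis 1 the median of all tested probes was 0.09 and that of the member probes −0.87.

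At 1 µM a single testis was analysed, so there is no test. Of the 11 member probes above background in 1 channel or both on 1 or both arrays, 0 were past 1.5-fold the same way on both arrays, where 2.95% of 13238 probes were lower and 4.03% higher. Prdx1 gave −0.05 on the first array and −0.40 on the repeat, and Prdx2 gave −0.32 and −0.23. The brighter Gpx1 probe gave −0.28 and −0.34, and the other −0.31 and −0.30. The Gpx1 probes, 2.20 apart in testis 2 at 10 µM, were thus less than 0.1 apart at 1 µM in either hybridization, with both channels above background on both arrays. Cat gave −0.51 and 1.08, on both sides of 0. Sod2 had a substitute signal in 1 channel of each array and has no measured ratio. Of the 11 probes, 7 were below 0 in both hybridizations, against 22.7% of all probes, with a median over the 10 probes tested at 10 µM of −0.23 beside 0.03 for all.

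The fitted ratio of each of the 10 tested member probes was lower at 10 µM than at 1 µM, but no difference passed the test. The estimate of 10 µM minus 1 µM was −1.86 for Prdx1 (95% interval −4.11 to 0.39) and −1.53 for Prdx3 (95% interval −3.73 to 0.68). It was −1.11 for the dimmer Gpx1 probe (95% interval −3.30 to 1.08) and −0.15 for the brighter (95% interval −2.36 to 2.07). In limma's fit of 3 testes against 1, in which the lone testis is assumed to vary like the others, 0 of the 10 passed at an adjusted or an unadjusted p of 0.05, and 0 of 10014 probes passed at the adjusted p (0%) and 21 at the unadjusted p (0.21%). All 3 testes at 10 µM were below the testis at 1 µM for 9 of the 10 member probes, against 38.5% of all tested probes. Both doses share the control pool. They are also partly split by slide, testes 1 and 2 at 10 µM being on the first slide and testis 3 with the testis at 1 µM on the second. Within the second slide, testis 3 was below the testis at 1 µM for all 10 member probes, by −2.01 for Prdx3 to −0.32 for Prdx6, where this held for 61.5% of all tested probes.

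Other genes of peroxide removal were counted in lists, with 1 probe for each gene. Beside the counts of these lists, 17.5% of all tested probes had an unadjusted p below 0.05 in limma, in either direction. Without testis 2, 9.53% of all tested probes passed as lower. Of the further peroxidases and dismutases, 4 were tested at 10 µM and 1 passed as lower. This was Prdx4, the peroxiredoxin of the endoplasmic reticulum. Its ratios were −1.87, −2.47 and −3.09 in testes 1, 2 and 3, averaging −2.48 ± 0.61 (SD, n = 3; limma, adjusted p = 0.0192). It was below 0 in all 6 hybridizations, with its MEHP channel above background on 2 of 6 arrays, and gave −0.62 and −1.06 at 1 µM. Over testes 1 and 3 alone it averaged −2.48, at an adjusted p of 0.00864. The other tested genes of the list went both ways: Sod3, Prdx5 and Ccs had means of 0.57, −0.59 and −0.80. Without testis 2 they stood at 0.92, −0.02 and −0.60. The median of the 4 tested genes was −0.70, beside −0.42 over all tested probes, and −0.31 beside −0.04 without testis 2.

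The thioredoxin system, which recycles the peroxiredoxins, had 6 tested genes, of which 0 passed in limma and 2 had an unadjusted p below 0.05, with a median of −0.90, and of −0.61 without testis 2. The 3 largest means were −1.29 for the mitochondrial thioredoxin Txn2, −1.15 for the thioredoxin reductase Txnrd1 and −0.95 for the glutaredoxin Glrx2. Over testes 1 and 3 these stood at −1.35, −0.78 and −0.85, and Txn2 passed in limma (adjusted p = 0.0362). The MEHP channel of Txn2 was above background on 2 of the 6 arrays. The other tested genes of the list, Txn1, Txnrd2 and Txnip, stood at −0.43, −0.25 and 0.24 over testes 1 and 3. Of glutathione synthesis and NADPH supply, 4 genes were tested and 0 passed in limma, 1 having an unadjusted p below 0.05, with a median of −0.39, and of −0.04 without testis 2. The 3 largest means were −1.48 for the cytosolic isocitrate dehydrogenase Idh1, −0.47 for the malic enzyme Me1 and −0.31 for the glutathione synthetase Gss. Over testes 1 and 3 Idh1 stood at −1.64 and passed in limma (adjusted p = 0.0190), while Me1 stood at 0.00063 and Gss at −0.09. The other tested gene, G6pdx, went the other way, with a mean of 0.11, and of 0.58 over testes 1 and 3. Its MEHP channel was above background on 4 of the 6 arrays. The MEHP channel of Idh1 was above background on 2 of the 6 arrays.

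Of NRF2 and its classic targets, 7 genes were tested and 0 passed in limma, 2 having an unadjusted p below 0.05, with a median of −0.50, and of −0.18 without testis 2. Nfe2l2, which encodes NRF2, gave −1.83, −2.07 and −1.39 in testes 1, 2 and 3, close together and all below the vehicle. Its MEHP channel was above background on only 2 of the 6 arrays, so this closeness rests partly on values not above background. Nfe2l2 averaged −1.76 ± 0.34 (SD, n = 3; limma, adjusted p = 0.0698), and −1.61 over testes 1 and 3 alone (limma, adjusted p = 0.0163). The ferritin heavy chain Fth1 had a mean of −1.61 and the haem oxygenase Hmox2 of −0.85, moving to −1.20 and −0.23 over testes 1 and 3. The other tested genes of the list, Ftl1, Mt1a, Mafg and Hmox1, had means of 0.15, −0.07, −0.05 and −0.50. Over testes 1 and 3 they stood on both sides of 0, at 0.91, 0.53, 0.52 and −0.18. Of selenoprotein synthesis, on which the glutathione peroxidases of the list depend, 2 genes were tested and 0 passed in limma or had an unadjusted p below 0.05. Secisbp2 had a mean of −0.64 and Sephs1 of −0.55, both with testes on either side of 0. Without testis 2, which gave −3.03 and −1.74, they stood at 0.56 and 0.04.

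Markers of the testis were set beside the members. For their counts too, the shares over all tested probes were 17.5% at an unadjusted p below 0.05 in limma and 9.53% passing as lower without testis 2. In the vehicle channel the Leydig cell hormone Insl3 and the Sertoli cell hormone Amh were above background on all 6 arrays at 10 µM, and the receptors Lhcgr and Fshr on none. Of the Leydig cell list, 5 of 7 genes were tested and Cyp17a1 passed as lower in limma (−1.96 ± 0.32, SD, n = 3; adjusted p = 0.0493), with a median of −1.18, and of −1.53 without testis 2. Over testes 1 and 3 Cyp17a1 stood at −2.14, and Insl3 and Hsd3b1, named after their values were seen, passed as lower too (limma, adjusted p of 0.0171 and 0.0193). The MEHP channel was above background on 2 of 6 arrays for Cyp17a1, 3 for Insl3 and 0 for Hsd3b1. The ratio of Hsd3b1 thus has no measured MEHP level. Scarb1 and Star, the other tested Leydig genes, stood at 0.71 and −0.30 over testes 1 and 3. Of the Sertoli cell list, 7 of 9 were tested and 0 passed, 4 having an unadjusted p below 0.05, with a median of −1.22. Without testis 2 that median was −0.80, and Inhbb and Dhh, also named after their values were seen, passed as lower in limma (adjusted p of 0.0380 and 0.0244). The MEHP channel was above background on 3 of 6 arrays for Inhbb and on 0 for Dhh. Without testis 2 Sox9 stood at 0.75. The other tested genes of the Sertoli list, Amh, Inha, Clu and Gata4, stood at −0.80, −0.85, −0.75 and −0.41. By the paper, fetal Leydig cells express Inha as well, so it does not mark Sertoli cells alone. The summed processed signals of testes 1 and 3 ran from 1365 to 2458 in the MEHP channel and from 2394 to 3829 in the vehicle channel for the Leydig list. For the Sertoli list they ran from 5868 to 11800 and from 8888 to 16945. In testis 2, where 0 genes of either list were above background in the MEHP channel, its 2 arrays gave 2851 and 880 for MEHP beside 9062 and 1683 for the vehicle in the Leydig list, and 8156 and 1530 beside 22221 and 3972 in the Sertoli list. The part of cell makeup in the members' ratios was not tested, and in whole testes fewer cells of a type and less RNA per cell cannot be told apart. Red cells are known to be rich in peroxiredoxin 2 and catalase, and none of the 4 erythroid genes on the array was tested, Hbb being above background in neither channel on any array at 10 µM. Of the germ, peritubular, endothelial and macrophage lists 1, 2, 1 and 3 genes were tested, with medians of −0.37, −0.71, −0.08 and −0.99, and 0 passed in limma, 1 macrophage gene having an unadjusted p below 0.05. Without testis 2 these medians were 0.34, −0.33, 0.88 and −1.03, and the peritubular gene Tagln and the macrophage gene Lyz, named after their values were seen, passed as lower (limma, adjusted p of 0.0339 and 0.0205). The MEHP channel was above background on 1 of 6 arrays for Tagln and on 0 for Lyz. The other tested peritubular gene, Des, stood at 0.54 without testis 2. The other tested macrophage genes, Cd68 and Aif1, stood at 0.66 and −1.03. Of the mesonephros list 0 were tested.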

How the data were processed

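RNA was measured on 8 Agilent 2-colour arrays, 2 for each of 4 testes, against 1 pool of vehicle RNA. Per the submitters' processing notes, the images were read with Agilent Feature Extraction 9.1. The authors deposited, for each spot, the log10 ratio of red over green, background-subtracted and normalized between the dyes of an array, and its error. They also deposited intensity values of both dyes and flags for outliers and background. The background subtracted was a fitted surface, and signals at background were replaced by substitute values, so that ratios of dim probes depend on these values. The authors' lists of fold score and p-value for each dose were not used.

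The deposited log10 ratios were converted to log2 MEHP over vehicle. Outlier and control spots were left out, the spots of a probe were averaged, and the 2 arrays of a testis were averaged to 1 replicate. Probes for which 1 channel or both stood well above background on 3 or more of the 6 arrays were tested against 0 with lmFit and eBayes in limma 3.58.1 (R 4.3.3, with the package data.table in version 1.17.8), two-sided, and p-values were Benjamini-Hochberg adjusted over every tested probe. The fit was tested on simulated data. Probes of a gene were kept apart, the first being the brighter, and the other lists used the brightest tested probe of a gene. From each other list, the genes past the threshold, or else the 3 with the largest absolute mean, were named, and of the marker lists those past the threshold. The other tested genes of the further peroxidase, thioredoxin, NADPH supply, NRF2, Leydig, Sertoli, peritubular and macrophage lists were added after their values were seen. All 12 member probes were matched by transcript to current symbols of GRCr8, and sequences come from RefSeq. Plots were made in matplotlib 3.10.9 (Python 3.11.15). The members and lists were chosen with earlier results of these data known. Arrays carry no counts, so their number limits the precision, and p-values take the pool as fixed. The spread between the 3 testes entered them only after eBayes had drawn it strongly towards a value shared by all tested probes. The standard error in limma was 0.547 for the dimmer Gpx1 probe and 0.563 for Prdx1, with SDs of 0.27 and 1.27. The p-values thus follow mainly a probe's mean and little its own spread. The alternatives covered background correction with loess normalization, centring, filters, outliers, dye orientation, single hybridizations, each testis left out, slide, moderation and error-weighted means.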

Additional observations from a re-analysis of the deposited data

How the results depend on the processing

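Limits: 3 testes and 1 control pool set the precision, and the sign of every ratio rests on the assumed dye orientation. Of 142 probes passing at 10 µM, 0 remained with normexp background and loess between the dyes in place of the deposited normalization (1657 at an unadjusted p below 0.05 in limma), with loess and no background correction (1591), without a filter (2442), with first hybridizations only (2932), with MEHP on Cy3 throughout (3223), with slide as a block (946), with testis as a random block over 6 arrays (1722) and with a spread for the control pool (57). The count was 6 with both channels required on 3 arrays, 20 with an intensity trend, 214 with repeats only, 1420 with spots above background in both channels only, and 5772 by error-weighted means (5188 at their unadjusted p of 0.01). Leaving out a testis gave 0 to 1668, 1668 without testis 2 and 0 without testis 1 or 3 (1360 and 502 at an unadjusted p below 0.05). The causes of these shifts were not tested.

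The count of member probes passing (1) was 0 under these same 8 settings and also with centring, with both channels required and with the trend. There 0 to 7 member probes had an unadjusted p below 0.05 in limma, against 0.569% to 32.2% of all tested probes. The 7 were with first hybridizations only, where the share of all was 29.4%. With centring 6 of 10 had such a p (23.4% of all), with both channels required 3 of 8 (15.5%) and with the trend 3 of 10 (16.4%). The count passing was 6 of 9 with spots above background in both channels only, where 28.7% of all tested probes passed, and 9 of 10 by error-weighted means, where 57.6% passed at the adjusted p and 51.8% at the unadjusted p. Leaving out a testis gave 0 to 3, and Prdx1 had an adjusted p in limma of 0.274 without testis 1 and 0.849 without testis 3. Prdx1 passed under 5 of 18 alternatives, with adjusted p from 3.75e-42 for the error-weighted mean to 0.99987 with a spread for the control pool.

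With MEHP on Cy3 on all arrays, as labelled, the sign turned for the brighter Gpx1 probe (0.050), Prdx1 (0.039), Prdx3 (0.025) and Prdx6 (0.20), and with repeats only for Cat (0.40). The dose difference of the brighter Gpx1 probe turned to 0.022 with loess and no background correction, 0.33 with centring and 0.019 with MEHP on Cy3, and ran from −0.62 to 0.16 as each testis was left out. The number of probes that differed between doses (0) was 1823 without a filter, 2 with spots above background in both channels only and 1 with repeats only. At 1 µM the 924 probes past the fold became 66 with normexp and loess, 104 with loess and no background correction, 2545 with MEHP on Cy3 (1 of them a member), 226 at 2-fold and 309 with both channels required. Of 528 recomputed values, 400 kept their direction and side of the threshold or, where untested, moved within the replicate spread, and for counts within 1.5 times. No paired analysis was possible because the 2 doses share only testis number 1, which only names a sample.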
